A study of Rattus norvegicus with 12 samples.

Results

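Cholesterol and fatty acid synthesis was followed through 30 genes, taken by symbol, in fetal rat metatarsals cultured with dexamethasone, LiCl or both. Of the 30 genes, 28 had at least 60 counts in at least 2 of 12 libraries, as did 12602 of the 30045 gene symbols. The 28 genes were 18 enzymes of sterol synthesis, 4 enzymes of fatty acid synthesis and 6 regulators. Elovl6, a fatty acid elongase, was low, with 1 to 5 counts per library. Scd2, a stearoyl-CoA desaturase, was not analysed here under that symbol.

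Cells build cholesterol from acetyl-CoA through mevalonate, farnesyl diphosphate, squalene and lanosterol, and they build palmitate from the same acetyl-CoA through malonyl-CoA. The genes of both pathways are switched on by SREBP transcription factors, which are held in the endoplasmic reticulum by Scap and the Insig proteins until sterols run low. Chondrocytes of the growth plate have no blood supply of their own, and inherited defects of sterol enzymes are known to disturb the skeleton.

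The bones were the middle metatarsals of Sprague Dawley fetuses at embryonic day 19, cultured for 72 h in medium with albumin. The control medium and the LiCl medium held ethanol as the vehicle of dexamethasone. Dexamethasone, a synthetic glucocorticoid, was given at 1 µM and LiCl, a lithium salt, at 10 mM, each alone or both together (dexamethasone + LiCl). Each of the 4 conditions had 3 libraries, each of about 20 pooled bones, so p-values measure the spread between pools and not between single bones. By the study's account each pool came from 1 of 3 rats, and the labels do not tie a library number to a rat. Whole bones were used, so in every result fewer cells of a type and less RNA per cell cannot be told apart.

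Total counts per library were 9055581 to 21953446, and libraries of a condition correlated at 0.98 to 0.993. The tissue label was borne out by its markers, with a summed level of 13 chondrocyte genes of 81500 to 118000 CPM (counts scaled to the TMM-adjusted library size). Libraries with the same number in the labels deviated together between conditions, other than between dexamethasone and control. For the genes of this pathway the number 2 libraries stood apart, with the lowest level of Lss, Acly, Acaca, Fasn and Scap and the highest level of Msmo1 of the 3 libraries in 4 of 4 conditions. Counts of genes called are therefore also given from the 8 libraries of numbers 1 and 3, a choice made after these levels were seen.

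The proximal promoters of the genes that responded most often are shown because a common control region is what ties these pathways together in textbooks. The sequences are from RefSeq (build GRCr8), which had an entry for 23 of the 30 genes, and each is the 250 bases before the annotated transcription start, 5′ to 3′ on the strand of the gene. Of the 8 genes that passed the test in at least 3 of 5 pairwise comparisons, these 5 had an entry. Capitals mark the letters CCAAT on either strand, which the factor NF-Y binds.
Idi1: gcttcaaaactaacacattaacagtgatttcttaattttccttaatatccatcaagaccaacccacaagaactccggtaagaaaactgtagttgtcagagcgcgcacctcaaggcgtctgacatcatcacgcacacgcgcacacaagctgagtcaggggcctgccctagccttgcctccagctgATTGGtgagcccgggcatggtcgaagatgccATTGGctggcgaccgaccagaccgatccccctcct
Sc5d: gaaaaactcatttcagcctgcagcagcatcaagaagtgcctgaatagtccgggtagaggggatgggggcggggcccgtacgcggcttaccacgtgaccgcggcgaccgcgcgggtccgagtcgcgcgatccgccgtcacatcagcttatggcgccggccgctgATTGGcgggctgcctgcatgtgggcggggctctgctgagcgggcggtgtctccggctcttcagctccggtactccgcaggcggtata
Dhcr7: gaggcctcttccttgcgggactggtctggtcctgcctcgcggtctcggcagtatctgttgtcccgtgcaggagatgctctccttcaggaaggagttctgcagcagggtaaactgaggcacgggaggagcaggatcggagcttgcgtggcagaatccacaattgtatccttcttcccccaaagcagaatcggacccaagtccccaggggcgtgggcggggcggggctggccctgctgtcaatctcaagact
Acly: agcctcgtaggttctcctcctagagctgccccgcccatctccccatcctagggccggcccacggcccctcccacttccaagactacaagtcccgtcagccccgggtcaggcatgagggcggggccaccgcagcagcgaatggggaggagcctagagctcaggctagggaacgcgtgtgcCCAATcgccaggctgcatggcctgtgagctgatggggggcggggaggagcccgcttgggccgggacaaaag
Acss2: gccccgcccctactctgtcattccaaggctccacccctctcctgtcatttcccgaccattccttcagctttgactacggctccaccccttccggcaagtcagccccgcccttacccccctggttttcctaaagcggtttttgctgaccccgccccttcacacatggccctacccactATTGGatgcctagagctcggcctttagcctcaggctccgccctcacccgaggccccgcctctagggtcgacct
The Idi1 window lies on chromosome 17, from 66547525 to 66547774 on the minus strand. The Sc5d window lies on chromosome 8, from 51538278 to 51538527 on the minus strand. The Dhcr7 window lies on chromosome 1, from 208444184 to 208444433 on the plus strand. The Acly window lies on chromosome 10, from 85963632 to 85963881 on the minus strand, and the Acss2 window on chromosome 3, from 164464453 to 164464702 on the plus strand. The nearest CCAAT began 35 bases before the start in Idi1, 87 in Sc5d, 71 in Acly and 73 in Acss2, and the Dhcr7 window held none. CCAAT was found in 19 of the 23 windows of the set (82.6%), in 34.0% of all 33469 RefSeq windows and in 36.6% of 8841 other genes that passed the count filter. GGGCGG, the letters of an Sp1 site, was also found in 19 of 23 (82.6%), in 30.5% of all windows and in 61.2% of the other filtered genes. CACGTG, an E-box, was found in 3 of 23 (13.0%), in 5.59% of all windows and in 8.53% of the other filtered genes, and the 3 were Sc5d, Insig1 and Scap. The sterol element written as TCACNCCAC was found in 0 of 23 windows, in 0.974% of all windows and in 1.07% of the other filtered genes. A match of letters is not a binding site and both strands were searched. Matches can share letters between motifs, since ATTGG can run into GGGCGG and the sterol element into CACGTG.

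Bones given both drugs had more mRNA of most cholesterol synthesis enzymes than control bones. At an adjusted p under 0.05 from edgeR, 15 of the 28 genes were higher with dexamethasone + LiCl and 0 were lower, against 10.8% of all genes tested called higher and 11.8% called lower. Without adjustment 0 were lower at p under 0.05, and DESeq2 also called 15 higher and 0 lower. The 15 genes were 11 of 18 sterol enzymes, 2 of 4 fatty acid enzymes and 2 of 6 regulators. The median log2 fold change was 0.30 for the sterol enzymes, 0.29 for the fatty acid enzymes and 0.13 for the regulators, beside 0.0085 for all genes tested. By step of the sterol pathway, from squalene synthase on, 8 of 11 enzymes were higher (median log2 fold change 0.42), and of the 7 enzymes up to farnesyl diphosphate 3 were (median 0.24), a split that was made after the values were seen and was not tested. None of the 28 genes passed a fold above 2 or below 0.5, a limit that 4.37% of all genes passed, and the largest fold was 1.91 for Acss2. In 17 genes the level was higher in each of the 3 same-numbered pairs of libraries and in 3 genes, Tm7sf2, Srebf1 and Scap, it was lower in each. The pairs were counted for the 28 genes only, so no share of all genes stands beside these counts. Of the 15 calls, 11 held whichever single library was left out, and 14 genes were called from the libraries of numbers 1 and 3. These 14 lacked Hmgcs1 and Insig2 and included Srebf2, which was not among the 15.

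**Figure D1:**
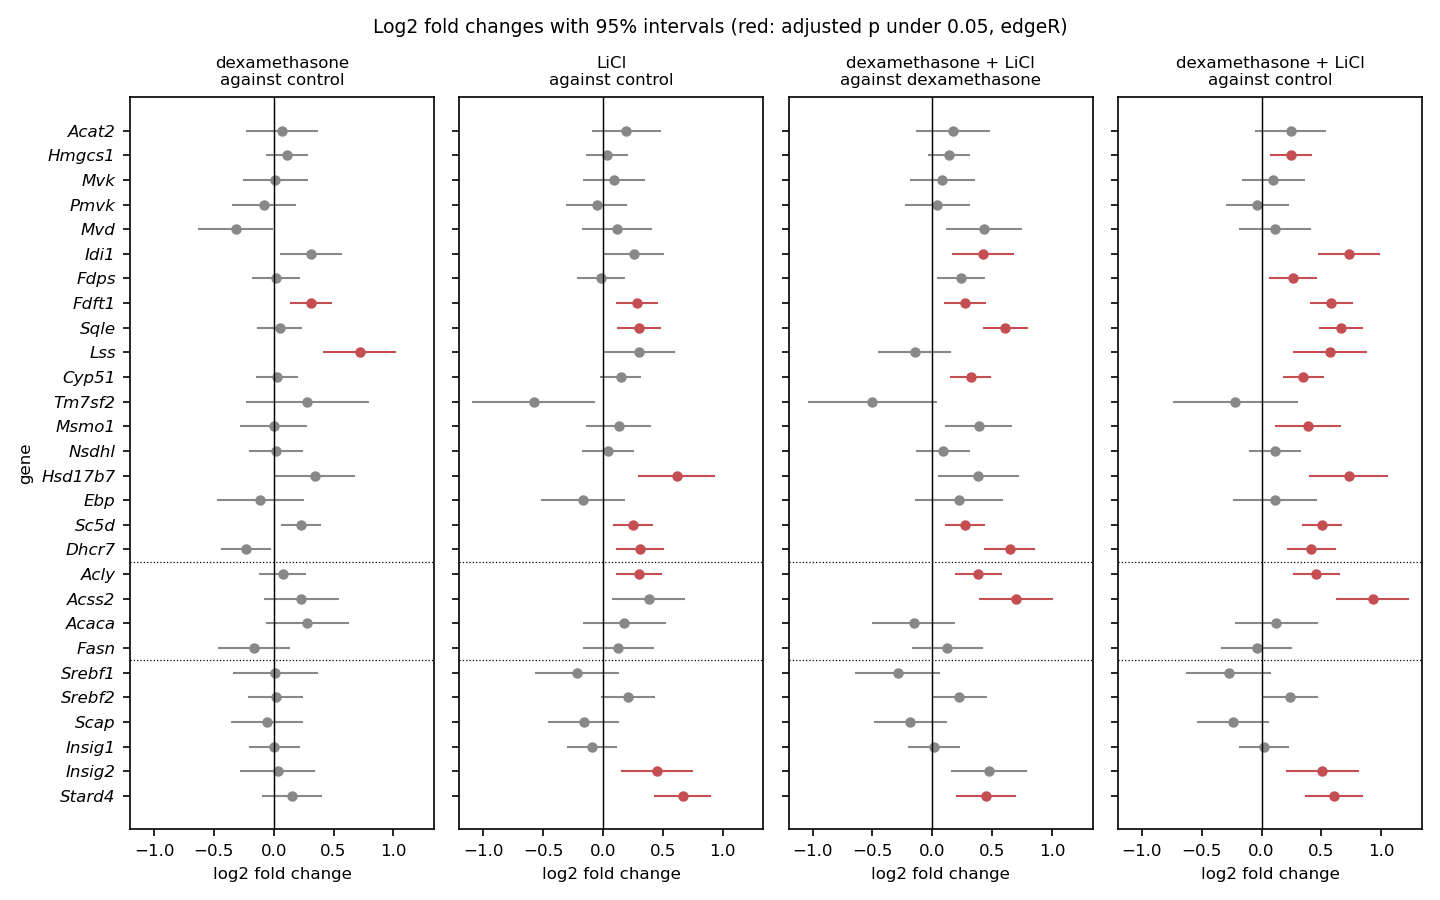
Log2 fold change (horizontal axis) of each of the 28 genes (rows) in 4 comparisons, with 95% intervals. Red marks an adjusted p under 0.05 from edgeR, which 2 genes reached with dexamethasone, 8 with LiCl, 9 with LiCl added to dexamethasone and 15 with both drugs against control, and every red point lies to the right of 0.

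LiCl alone raised genes of all 3 groups. Of the 28, 8 were higher than in control and 0 lower, against 4.71% of all genes called higher and 5.9% called lower. They were the sterol enzymes Fdft1, Sqle, Hsd17b7, Sc5d and Dhcr7, the citrate lyase Acly and the regulators Insig2 and Stard4. Without adjustment 11 were higher and 1, Tm7sf2, was lower at p under 0.05, and DESeq2 called 8 and 0. The median log2 fold change was 0.14 for sterol enzymes, 0.24 for fatty acid enzymes and 0.06 for regulators, beside 0.0009 for all genes. None passed the fold limit, which 1.58% of all genes passed. The count rested on single libraries. It was 2 without control 1, control 3, LiCl 1 or LiCl 3, 5 without control 2 or LiCl 2, and 4 without library 1 of dexamethasone + LiCl. Stard4 was the 1 gene called whichever library was left out, and 6 genes were called from numbers 1 and 3. With the library number as a term (replicate block), Lss was called too (adjusted p = 0.0161).

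Adding LiCl to dexamethasone raised sterol enzymes, Stard4, and Acly and Acss2, which supply the acetyl-CoA of both pathways. Acaca and Fasn, which build the fatty acid chain, were not called. Of the 28, 9 were higher than with dexamethasone alone and 0 lower, against 3.82% and 4.78% of all genes. They were Idi1, Fdft1, Sqle, Cyp51, Sc5d and Dhcr7 among the sterol enzymes, Acly and Acss2 among the fatty acid enzymes, and Stard4. This comparison shares no library with that of LiCl against control, and Fdft1, Sqle, Sc5d, Dhcr7, Acly and Stard4 were called in both, which is 6 of the 8 genes called there and 6 of the 9 called here. Of all genes tested, 267 were called higher in both, which is 44.9% of the 594 there and 55.5% of the 481 here. Without adjustment 15 were higher and 0 lower at p under 0.05, and DESeq2 called 11 and 0. The median log2 fold change was 0.26 for sterol enzymes, 0.25 for fatty acid enzymes and 0.12 for regulators, beside -0.0042 for all genes. None passed the fold limit, which 1.36% of all genes passed. The count was 4 without dexamethasone 3 or without library 2 or 3 of dexamethasone + LiCl, and 8 from numbers 1 and 3. These 8 lacked Fdft1 and Cyp51 and included Msmo1, which was not among the 9. Sqle, Dhcr7 and Acss2 were called whichever library was left out. Without dexamethasone 2, Tm7sf2 was called lower (log2 fold change -0.77). With the replicate block, Msmo1 (adjusted p = 0.00451) and Insig2 (adjusted p = 0.0171) were called as well.

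With dexamethasone alone, the lanosterol synthase Lss and the squalene synthase Fdft1 were raised. These 2 of the 28 genes were higher and 0 of 28 were lower, against 5.45% and 5.49% of all genes. The count of genes called higher thus lies near the share of all genes. Without adjustment 5 were higher and 2, Mvd and Dhcr7, were lower at p under 0.05, and DESeq2 called 2 and 0. The median log2 fold change was 0.04 for sterol enzymes, 0.15 for fatty acid enzymes and 0.015 for regulators, beside 0.0021 for all genes. None passed the fold limit, which 2.84% of all genes passed. The call of Lss held whichever library was left out, and without dexamethasone 3 Idi1 was called too (log2 fold change 0.41, adjusted p = 0.0447). The call of Fdft1 was lost without control 3, dexamethasone 1 or dexamethasone 2 (adjusted p up to 0.0917), leaving 1 gene, and Lss alone was called from numbers 1 and 3. With the replicate block, Idi1 (adjusted p = 0.0306) and Sc5d (adjusted p = 0.0437) were called as well.

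With LiCl present in both groups, dexamethasone raised 5 of the 28 genes and lowered 0, against 3.79% and 3.09% of all genes. These were Idi1, Fdft1, Sqle, Sc5d and Acss2. Without adjustment 8 were higher and 0 lower at p under 0.05, and DESeq2 called 6 and 0. The median log2 fold change was 0.24 for sterol enzymes, 0.05 for fatty acid enzymes and -0.0145 for regulators, beside -0.0021 for all genes. None passed the fold limit, which 2.01% of all genes passed. None of the 5 calls held under the loss of every library. The count was 0 without library 2 of LiCl or of dexamethasone + LiCl, 2 without LiCl 1 or LiCl 3, 3 without library 1 or 3 of dexamethasone + LiCl, and 2 from numbers 1 and 3. Those 2 from numbers 1 and 3 were Idi1 and Lss (adjusted p = 0.0484 for Lss), and Lss was not among the 5. With the replicate block, Fdps and Msmo1 were also called (adjusted p = 0.0496 for each).

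The larger rise with both drugs was not shown to exceed the sum of the single drugs. In the test of the interaction, 0 of 28 genes were called by edgeR and 0 by DESeq2, and of all genes 0.00794% were called. At an unadjusted p under 0.05, Sqle and Dhcr7 lay above the sum and Lss below it, which is 3 of 28 genes beside 705 of 12602. The log2 interaction was 0.31 for Sqle (95% interval 0.06 to 0.56), 0.34 for Dhcr7 (0.06 to 0.62) and -0.45 for Lss (-0.87 to -0.03). The 95% intervals of the interaction spanned 0 for the other genes of the set.

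**Figure D2:**
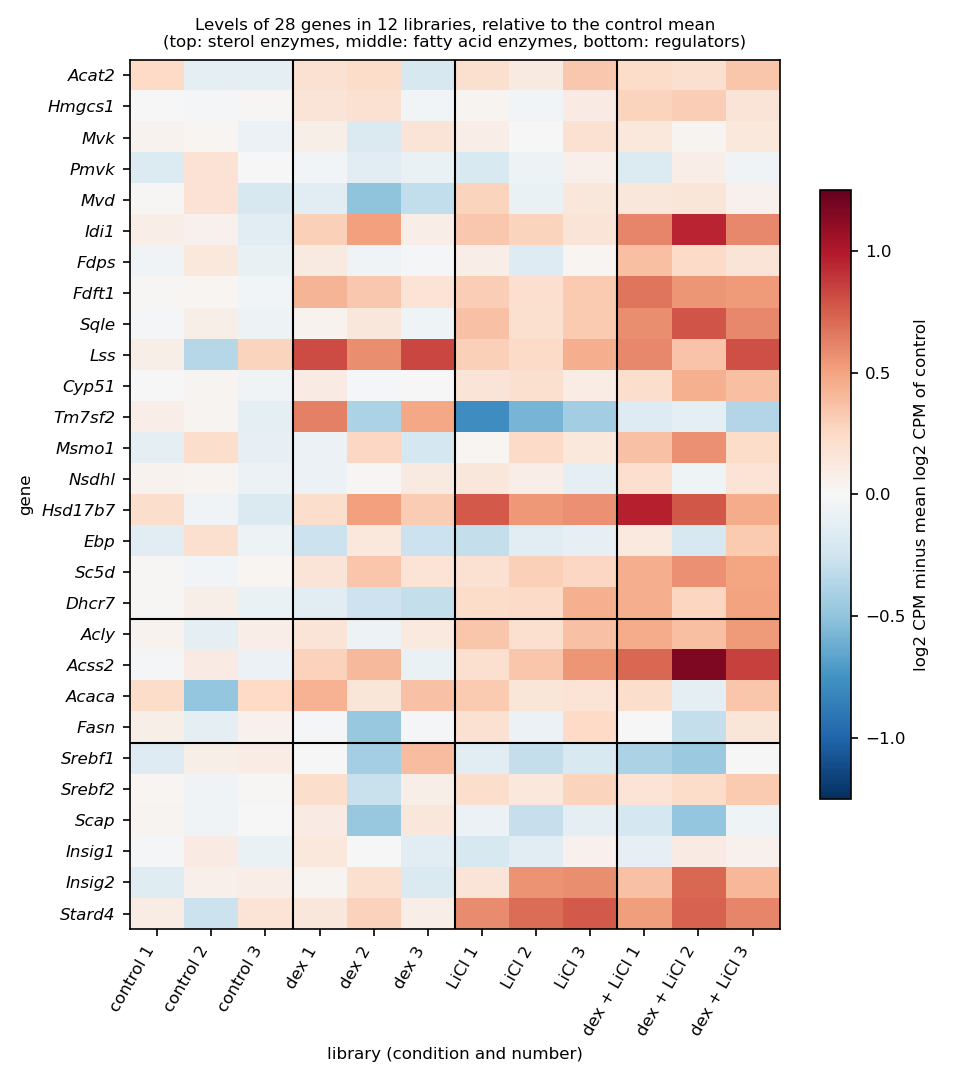
Level of each of the 28 genes (rows) in each of the 12 libraries (columns, dex stands for dexamethasone), as log2 CPM minus the mean log2 CPM of the 3 control libraries. Red is above control and blue below, black lines part the conditions and the 3 gene groups, and the mean of the sterol enzymes is highest with both drugs (0.33).

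The mevalonate enzymes, which carry acetyl-CoA to farnesyl diphosphate, are taken first. All values per library that follow are in CPM and in the order of library numbers 1, 2 and 3. Idi1, the isomerase of isopentenyl diphosphate, was at 56.5, 55.1 and 48.4 in control, at 65.2, 76.1 and 56.4 with dexamethasone, at 67.2, 64.5 and 59.4 with LiCl, and at 81.5, 103 and 80.8 with dexamethasone + LiCl. The 3 libraries with both drugs lay above all other 9. The log2 fold change was 0.73 ± 0.12 (SE) against control (adjusted p = 0.000302), 0.42 ± 0.12 against dexamethasone (adjusted p = 0.0372) and 0.48 ± 0.12 against LiCl (adjusted p = 0.0184). The call against control held without any single library. That against dexamethasone was lost without dexamethasone 1 or 3, LiCl 2 or library 1 or 2 with both drugs (adjusted p up to 0.164), and that against LiCl without LiCl 2, LiCl 3 or library 2 with both drugs (adjusted p up to 0.119).

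Hmgcs1, the HMG-CoA synthase that opens the pathway, was at 165, 162 and 166 in control, at 184, 188 and 160 with dexamethasone, at 168, 160 and 177 with LiCl and at 199, 204 and 184 with both drugs. The libraries with both drugs lay above those of control and LiCl and overlapped those of dexamethasone. It rose by 0.25 ± 0.08 on the log2 scale against control (adjusted p = 0.0345), a call lost without any 1 of the 3 control libraries or without library 1 or 2 with both drugs (adjusted p up to 0.125). Fdps, the farnesyl diphosphate synthase, was at 128, 145 and 124 in control, 143, 128 and 131 with dexamethasone, 140, 118 and 134 with LiCl and 171, 156 and 148 with both drugs. Its libraries with both drugs lay above all other 9. The rise of 0.26 ± 0.09 against control (adjusted p = 0.0497) was lost when any 1 of 8 of the 12 libraries was left out (adjusted p up to 0.192), the exceptions being the number 2 libraries of control, dexamethasone and LiCl and library 3 with both drugs.

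The other mevalonate enzymes passed the test in no comparison. Acat2, the cytosolic thiolase, ranged from 12.2 to 17.9 CPM over the 12 libraries. Mvk, the mevalonate kinase, ranged from 9.65 to 12.5, and Pmvk, the phosphomevalonate kinase, from 13.0 to 16.8. Mvd, the decarboxylase, was at 9.80 ± 1.20 (SD, n = 3) with dexamethasone, 12.2 ± 1.63 in control and 13.2 ± 0.496 with both drugs, and the dexamethasone libraries lay below those with both drugs (log2 fold change of both drugs against dexamethasone 0.43 ± 0.15, adjusted p = 0.0829).

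Squalene synthesis and its first oxidation commit the pathway to sterols. Fdft1, the squalene synthase, was at 66.8, 67.1 and 64.7 in control, 88.8, 83.4 and 74.3 with dexamethasone, 82.2, 76.5 and 83.3 with LiCl and 105, 97.0 and 95.9 with both drugs. Every library of each single drug lay above every control library, and those with both drugs lay above all others. It was the 1 gene of the set called in all 5 pairwise comparisons, with log2 fold changes of 0.31 ± 0.08 for dexamethasone (adjusted p = 0.0175), 0.28 ± 0.08 for LiCl (adjusted p = 0.0301) and 0.58 ± 0.08 for both drugs (adjusted p = 6.76e-05) against control. Both drugs exceeded dexamethasone by 0.27 ± 0.08 (adjusted p = 0.0451) and LiCl by 0.30 ± 0.08 (adjusted p = 0.0283). The interaction was -0.01 with a 95% interval of -0.25 to 0.22. The call with LiCl alone was lost without control 1, control 3, LiCl 1 or LiCl 3 (adjusted p up to 0.115), the call against dexamethasone was lost for 10 of the 12 libraries (all but control 2 and dexamethasone 1, adjusted p up to 0.173), and the call against LiCl without any 1 of the 6 libraries compared (adjusted p up to 0.135).

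Sqle, the squalene epoxidase, was at 58.4, 62.3 and 56.6 in control, 60.9, 65.1 and 57.0 with dexamethasone, 76.1, 68.0 and 74.1 with LiCl and 88.5, 102 and 89.5 with both drugs. Control and dexamethasone libraries overlapped, LiCl libraries lay above both and the libraries with both drugs lay above all. LiCl raised it by 0.30 ± 0.08 against control (adjusted p = 0.0301) and by 0.61 ± 0.08 in the presence of dexamethasone (adjusted p = 0.000347). The rise with both drugs against control was 0.66 ± 0.08 (adjusted p = 3.45e-05), and against LiCl it was 0.36 ± 0.08 (adjusted p = 0.0122). Dexamethasone alone gave 0.05 ± 0.08 (95% interval -0.13 to 0.23). Without control 1, control 3, LiCl 1 or LiCl 3 the call with LiCl alone was lost (adjusted p up to 0.113), and the call against LiCl without library 2 of either group (adjusted p up to 0.0801).

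Lss, which closes squalene epoxide to lanosterol, had the largest log2 fold change with dexamethasone among the 28 genes. It was at 77.6, 57.7 and 89.3 in control, 130, 110 and 131 with dexamethasone, 90.8, 86.7 and 101 with LiCl and 112, 94.3 and 129 with both drugs. Dexamethasone and both-drug libraries lay above all control libraries, while LiCl libraries overlapped control. The log2 fold change was 0.72 ± 0.14 with dexamethasone (adjusted p = 0.00289) and 0.57 ± 0.14 with both drugs (adjusted p = 0.00797). Both drugs differed from dexamethasone by -0.15 ± 0.14 (95% interval -0.44 to 0.15).

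**Figure D3:**
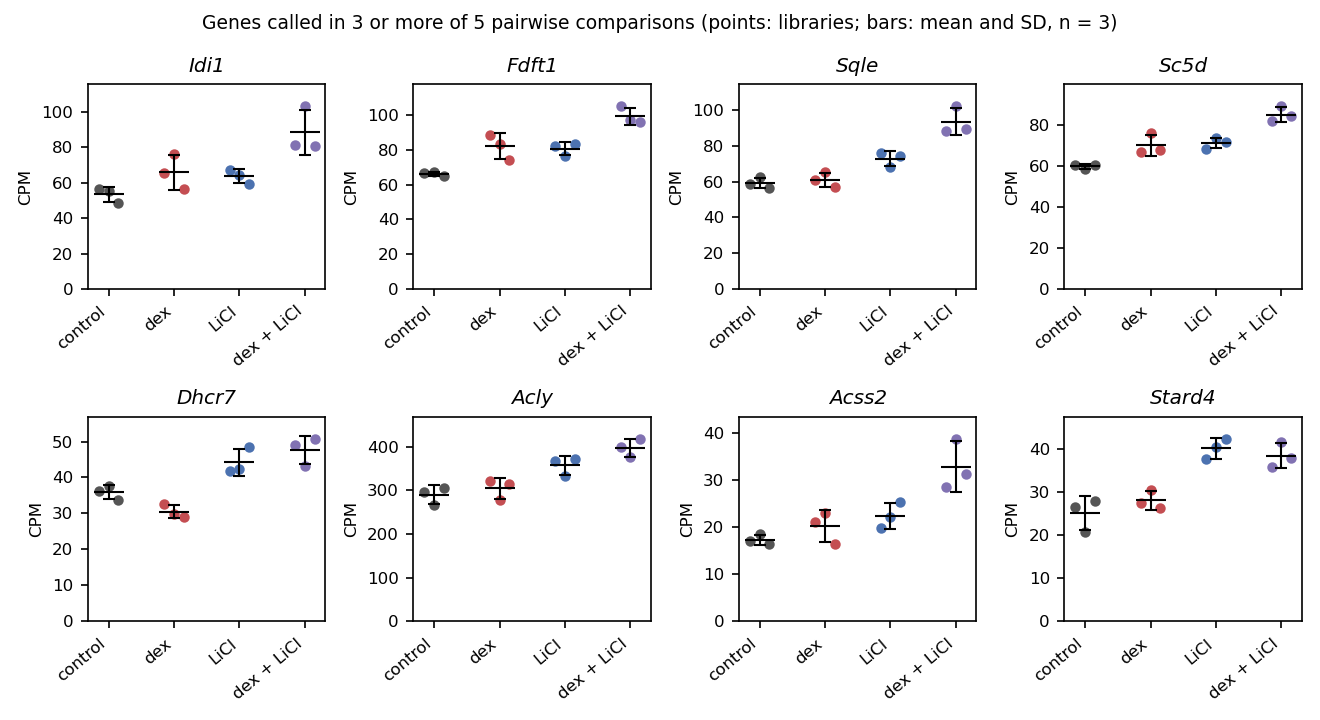
CPM (vertical axis, from 0) of the 8 genes called in at least 3 of the 5 pairwise comparisons, in control, dexamethasone (dex), LiCl and dexamethasone + LiCl. Points are libraries and bars the mean and SD (n = 3), and in 7 of the 8 genes the mean was highest with both drugs, with Stard4 the exception.

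The enzymes that trim lanosterol to cholesterol followed. Cyp51, the lanosterol demethylase, was at 159, 162 and 153 in control, 170, 155 and 158 with dexamethasone, 177, 181 and 168 with LiCl and 184, 215 and 205 with both drugs, and the both-drug libraries lay above all others. It rose by 0.35 ± 0.08 against control (adjusted p = 0.004) and by 0.32 ± 0.08 against dexamethasone (adjusted p = 0.0182), the latter lost without dexamethasone 3 or library 2 or 3 with both drugs (adjusted p up to 0.0852). Msmo1, the sterol methyl oxidase, was at 58.2, 73.3 and 58.7 in control, 59.8, 75.3 and 54.0 with dexamethasone, 64.0, 74.2 and 68.9 with LiCl and 81.1, 93.5 and 73.8 with both drugs. Library 2 was highest in each condition, and the both-drug libraries lay narrowly above control. The rise of 0.39 ± 0.13 against control (adjusted p = 0.0371) was lost without control 1, control 3, LiCl 3 or library 1 or 2 with both drugs (adjusted p up to 0.166), and with the replicate block its adjusted p was 0.00169.

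Hsd17b7, the sterol ketoreductase, was at 10.8, 9.01 and 8.16 in control, 10.8, 13.2 and 11.5 with dexamethasone, 15.8, 13.5 and 13.8 with LiCl and 18.2, 15.9 and 12.8 with both drugs. LiCl and both-drug libraries lay above control and overlapped each other. It rose by 0.62 ± 0.15 with LiCl (adjusted p = 0.0146) and by 0.73 ± 0.15 with both drugs (adjusted p = 0.00248). The call with LiCl was lost without control 3 or LiCl 1 (adjusted p up to 0.0612).

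Sc5d, the sterol desaturase, was at 60.5, 58.4 and 60.7 in control, 66.8, 76.0 and 67.6 with dexamethasone, 68.5, 73.6 and 71.5 with LiCl and 82.0, 89.1 and 84.2 with both drugs. Control was lowest and both drugs highest with no overlap, and the single drugs overlapped each other. The log2 fold change was 0.51 ± 0.07 with both drugs (adjusted p = 0.000139), 0.25 ± 0.07 with LiCl (adjusted p = 0.0409) and 0.23 ± 0.07 with dexamethasone, which missed the threshold (adjusted p = 0.0638, and 0.0437 with the replicate block). Both drugs exceeded dexamethasone by 0.28 ± 0.07 (adjusted p = 0.0314) and LiCl by 0.26 ± 0.07 (adjusted p = 0.0473). These smaller steps were fragile. The call with LiCl was lost for 8 of the 12 libraries (all but the 3 dexamethasone libraries and library 2 with both drugs, adjusted p up to 0.143), that against dexamethasone without dexamethasone 1 or 3 or any both-drug library (adjusted p up to 0.12), and that against LiCl for 10 libraries (all but control 2 and dexamethasone 2, adjusted p up to 0.197).

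Dhcr7, the reductase of the last step to cholesterol, was at 36.1, 37.7 and 33.8 in control, 32.5, 29.9 and 29.1 with dexamethasone, 41.9, 42.3 and 48.6 with LiCl and 49.0, 43.2 and 50.8 with both drugs. Dexamethasone libraries lay below control and those with LiCl lay above control, with or without dexamethasone. The log2 fold change was -0.23 ± 0.09 with dexamethasone, which missed the threshold (adjusted p = 0.147), 0.31 ± 0.09 with LiCl (adjusted p = 0.0404) and 0.42 ± 0.09 with both drugs (adjusted p = 0.00397). When LiCl was added to dexamethasone it rose by 0.65 ± 0.10 (adjusted p = 0.000611). The call with LiCl alone was lost without control 1, control 3, any LiCl library or library 1 with both drugs (adjusted p up to 0.186).

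The remaining sterol enzymes passed the test in no comparison. Nsdhl, a sterol dehydrogenase, ranged from 25.0 to 31.3 CPM over the 12 libraries and Ebp, the sterol isomerase, from 7.93 to 12.2. Tm7sf2, a sterol reductase, had 29 to 83 counts and reached 60 in 2 libraries, both control, so it passed the count filter through the control group alone. It was at 3.74, 3.62 and 3.27 CPM in control, 5.48, 2.69 and 4.93 with dexamethasone, 2.07, 2.36 and 2.62 with LiCl and 3.17, 3.28 and 2.74 with both drugs. The LiCl libraries lay below all others, and the log2 fold change of -0.58 ± 0.24 against control missed the threshold (adjusted p = 0.134).

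Of the fatty acid enzymes, the 2 that supply acetyl-CoA rose and the 2 that build the chain were not called. Acly, which splits citrate to acetyl-CoA, was at 297, 265 and 306 in control, 322, 277 and 315 with dexamethasone, 367, 332 and 372 with LiCl and 398, 376 and 418 with both drugs. Every library with LiCl lay above every library without it. LiCl raised it by 0.30 ± 0.09 (adjusted p = 0.0388) and by 0.38 ± 0.09 when dexamethasone was present (adjusted p = 0.0141), and both drugs raised it by 0.46 ± 0.09 against control (adjusted p = 0.00142). The call with LiCl alone was lost without control 1, control 2, LiCl 1, LiCl 3 or library 1 with both drugs (adjusted p up to 0.143), and that against dexamethasone without library 3 with both drugs (adjusted p = 0.0615).

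Acss2, which makes acetyl-CoA from acetate, had the largest fold change of the set. It was at 17.0, 18.6 and 16.5 in control, 21.2, 23.0 and 16.4 with dexamethasone, 19.9, 22.1 and 25.4 with LiCl and 28.5, 38.9 and 31.4 with both drugs. The both-drug libraries lay above all others, LiCl lay above control, and dexamethasone overlapped control. The log2 fold change with both drugs was 0.93 ± 0.14 against control (adjusted p = 0.000171), 0.70 ± 0.14 against dexamethasone (adjusted p = 0.00649) and 0.55 ± 0.14 against LiCl (adjusted p = 0.0206). The last of these was lost without LiCl 1, LiCl 2 or library 2 with both drugs (adjusted p up to 0.134). LiCl alone gave 0.38 ± 0.14 against control, which missed the threshold (adjusted p = 0.0946).

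Acaca, the acetyl-CoA carboxylase that makes malonyl-CoA, was at 113, 69.0 and 114 in control, 130, 107 and 124 with dexamethasone, 121, 107 and 108 with LiCl and 112, 88.5 and 122 with both drugs. Fasn, the fatty acid synthase, was at 452, 394 and 447 in control, 423, 309 and 422 with dexamethasone, 491, 409 and 512 with LiCl and 429, 349 and 479 with both drugs. In both genes library 2 was lowest in every condition and the 4 conditions overlapped. With both drugs the log2 fold change against control was 0.12 for Acaca (95% interval -0.21 to 0.46) and -0.04 for Fasn (-0.33 to 0.25), so a rise of the size seen in Acss2 lies outside both intervals.

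The sterol and fatty acid enzymes were set side by side by the mean of their levels. The mean log2 CPM of the 18 sterol enzymes, relative to control, was 0.09 ± 0.05 (SD, n = 3) with dexamethasone, 0.13 ± 0.04 with LiCl and 0.33 ± 0.02 with both drugs. That of the 4 fatty acid enzymes was 0.11 ± 0.11, 0.25 ± 0.09 and 0.37 ± 0.10. The sterol mean with both drugs was 0.31 to 0.34, above the other 9 libraries, which reached at most 0.16. The fatty acid mean with both drugs was 0.28 to 0.47 and overlapped that with LiCl (0.16 to 0.34), and its control libraries spread from -0.16 to 0.08, the low value being control 2. No test was made between the groups, since 4 genes carry the fatty acid value and Acss2 and Acly carry its rise.

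**Figure D4:**
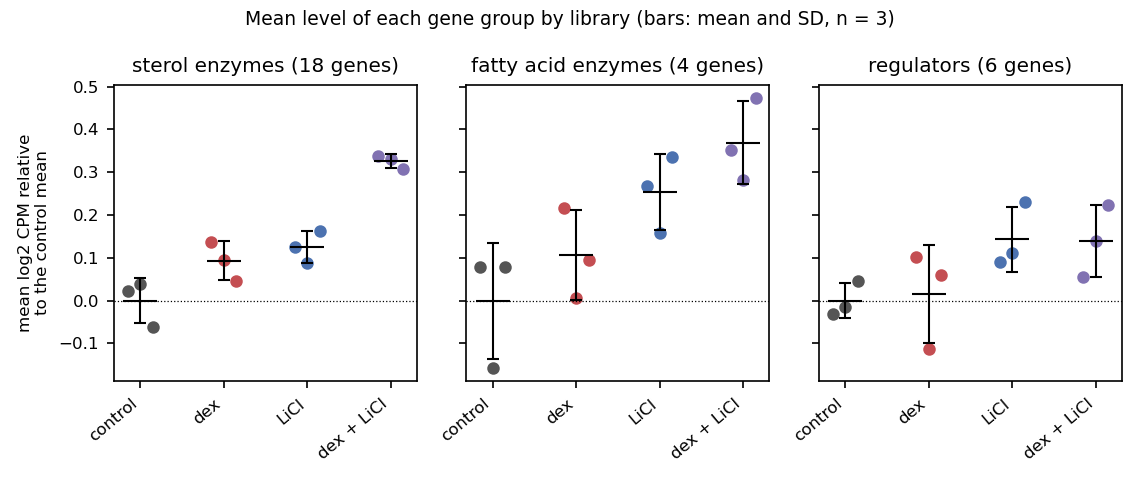
Mean log2 CPM of the sterol enzymes (18 genes), fatty acid enzymes (4 genes) and regulators (6 genes) in each library, relative to the control mean (dotted line). Points are libraries and bars the mean and SD (n = 3), and for sterol enzymes the both-drug libraries (0.31 to 0.34) stand clear of all others.

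Among the regulators, the transcription factor genes themselves were not called. Srebf2, the SREBP that favours sterol genes, was at 206 ± 4.71 CPM (SD, n = 3) in control, 208 ± 35.5 with dexamethasone, 238 ± 12.5 with LiCl and 243 ± 13.7 with both drugs, and the LiCl and both-drug libraries lay above control (log2 fold change with both drugs 0.24 ± 0.10, adjusted p = 0.11). Srebf2 was called in this comparison without dexamethasone 2 (adjusted p = 0.0256) and from numbers 1 and 3 (adjusted p = 0.0489). Srebf1, the SREBP that favours fatty acid genes, was at 233 ± 22.5, 236 ± 65.2, 201 ± 11.1 and 192 ± 34.9 in the same order, with overlap in every comparison. Scap, which escorts SREBP to the Golgi, was at 83.5, 79.2 and 81.5 in control and at 77.1, 66.7 and 75.1 with LiCl, below control with no overlap (log2 fold change -0.16 ± 0.14, adjusted p = 0.493). With both drugs Scap was at 69.9, 58.2 and 78.2, also below control with no overlap and not called. With the replicate block its log2 fold change there was -0.25 (adjusted p = 0.0716). Insig1, the retention factor that SREBP itself induces, ranged from 45.1 to 56.7 CPM over the 12 libraries with overlap in every comparison, and its log2 fold change with both drugs was 0.02 (95% interval -0.18 to 0.22).

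Insig2, the other retention factor, was at 15.1, 17.5 and 17.8 in control, 17.1, 19.3 and 14.8 with dexamethasone, 18.7, 24.8 and 25.0 with LiCl and 21.6, 27.6 and 22.4 with both drugs. LiCl libraries lay above control, and both-drug libraries lay above control and dexamethasone. It rose by 0.45 ± 0.14 with LiCl (adjusted p = 0.0464) and by 0.51 ± 0.14 with both drugs (adjusted p = 0.0159). For 8 of the 12 libraries the call with LiCl was lost (all but dexamethasone 2, dexamethasone 3, LiCl 1 and library 2 with both drugs, adjusted p up to 0.181), and that with both drugs without control 1 or library 2 with both drugs (adjusted p up to 0.0883).

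Stard4, a carrier of cholesterol between membranes, was at 26.7, 20.8 and 28.1 in control, 27.5, 30.6 and 26.4 with dexamethasone, 37.7, 40.6 and 42.5 with LiCl and 35.8, 41.7 and 38.1 with both drugs. Every library with LiCl lay above every library without it, and adding dexamethasone to LiCl gave -0.06 ± 0.11 (95% interval -0.29 to 0.17). It rose by 0.67 ± 0.11 with LiCl (adjusted p = 0.00119), by 0.60 ± 0.11 with both drugs against control (adjusted p = 0.000936) and by 0.45 ± 0.11 against dexamethasone (adjusted p = 0.0219). The last was lost without dexamethasone 1 or 3 or library 2 or 3 with both drugs (adjusted p up to 0.0903).

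The stearoyl-CoA desaturases, which make oleate from stearate, could not be assigned with certainty. The files held rows named Scd and Scd1, and the current RefSeq table gives Scd as an older name of Scd2 and Scd1 as a synonym of Scd, and these closely related copies may share reads. The Scd row was at 1690, 1590 and 1830 CPM in control, 1850, 1560 and 1860 with dexamethasone, 2140, 1940 and 2340 with LiCl and 2180, 2180 and 2550 with both drugs. It rose by 0.44 ± 0.11 with both drugs (adjusted p = 0.00755) and by 0.39 ± 0.11 when LiCl joined dexamethasone (adjusted p = 0.0336), a call lost without any 1 of the 6 libraries compared (adjusted p up to 0.14). The Scd1 row, at 157 ± 16.6 in control and 141 ± 3.14 with dexamethasone, reached 218 ± 19.8 with LiCl and 236 ± 18.2 with both drugs. It rose by 0.47 ± 0.09 with LiCl (adjusted p = 0.00441), by 0.75 ± 0.09 when LiCl joined dexamethasone (adjusted p = 0.000157) and by 0.59 ± 0.09 with both drugs (adjusted p = 0.000302), and neither row was called with dexamethasone alone.

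The other genes of the pathways were counted from lists. Of all genes tested, 5.45% were higher and 5.49% lower with dexamethasone, and 4.71% and 5.9% with LiCl. The shares were 3.82% and 4.78% when LiCl joined dexamethasone, and 10.8% and 11.8% with both drugs. Of 12 other genes of sterol and isoprenoid synthesis that passed the count filter, 1 was higher with LiCl, 1 was higher and 1 lower when LiCl joined dexamethasone, 1 was higher with both drugs and 0 were called with dexamethasone, and the median log2 fold change with both drugs was -0.01. The gene lower when LiCl joined dexamethasone was Faxdc2, a fatty acid hydroxylase family member (-0.58 ± 0.16, adjusted p = 0.0352). That call was lost without dexamethasone 1 or 3, LiCl 2 or 3 or any library with both drugs (adjusted p up to 0.129). Of 21 other genes of fatty acid synthesis, elongation, desaturation and activation, which include the Scd row, 7 were higher and 1 lower with both drugs, 4 higher and 0 lower with LiCl, and 5 higher and 0 lower when LiCl joined dexamethasone. Among the 21, Elovl7 was at 1.13 ± 0.34 CPM in control, 2.7 ± 1.03 with LiCl and 3.5 ± 0.57 with both drugs. It reached the minimum count only in libraries with LiCl, where it was high, so its part in these counts carries that selection. Me1, the malic enzyme that supplies NADPH for lipid synthesis, was at 130 ± 5.26 CPM in control, 111 ± 27.3 with dexamethasone, 221 ± 11.0 with LiCl and 198 ± 17.3 with both drugs, and it rose by 0.77 ± 0.13 with LiCl (adjusted p = 0.00153). Acsl6, an acyl-CoA synthetase, rose by 1.44 ± 0.18 with LiCl (adjusted p = 0.000125), and Acsl4, of the same family, by 0.43 ± 0.09 (adjusted p = 0.0045). Slc25a1, the mitochondrial citrate carrier, was the 1 gene of this list that fell with dexamethasone (-0.49 ± 0.13, adjusted p = 0.0277), and it was higher by 0.50 ± 0.14 when LiCl was added (adjusted p = 0.0325). The fall was lost without control 1 or 2 or dexamethasone 2 or 3 (adjusted p up to 0.139) and from numbers 1 and 3 (-0.28, adjusted p = 0.313), and the rise without dexamethasone 2 or 3 or any library with both drugs (adjusted p up to 0.148).

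Of 23 other genes of SREBP processing, sterol sensing, uptake, transport and esterification, 3 were higher and 3 lower with both drugs, with a median log2 fold change of 0.008. Of all genes tested, 10.8% were higher and 11.8% lower in this comparison, so these counts lie near the share of all genes. Mbtps1, the protease that makes the first cut of SREBP, was at 285, 288 and 301 CPM in control, 307, 260 and 320 with dexamethasone, 216, 197 and 204 with LiCl and 194, 199 and 206 with both drugs. Every library with LiCl lay below every library without it, and the gene fell by 0.50 on the log2 scale with LiCl (SE 0.08, adjusted p = 0.00134) and by 0.57 when LiCl joined dexamethasone (SE 0.08, adjusted p = 0.000643). Abca1, a cholesterol exporter, fell by 0.67 with both drugs (SE 0.13, adjusted p = 0.00112). Lpin1, a phosphatidate phosphatase that also restrains SREBP, rose by 1.60 ± 0.11 with dexamethasone (adjusted p = 6.6e-08) and by 1.57 ± 0.11 with both drugs (adjusted p = 5.32e-08). Mlxipl, which encodes the carbohydrate-responsive factor ChREBP, was at 1.18 ± 0.138 CPM in control. It rose to 4.44 ± 0.525 with dexamethasone (adjusted p = 0.000903) and 5.53 ± 1.47 with both drugs (adjusted p = 9.55e-05). Every Mlxipl library without dexamethasone lay under the minimum count. The gene therefore passed the count filter only through the groups where it was high, and its p-values carry that selection.

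Markers of other cell types moved in the same cultures. The summed level of 10 adipocyte genes was 51.2 to 72.7 CPM in control, 54.4 to 67.3 with dexamethasone, 22.4 to 23.9 with LiCl and 39.2 to 54.7 with both drugs, and of the 4 that passed the count filter 4 were lower with LiCl and 3 with both drugs. Adipoq, Plin1, Plin4, Cfd and Pparg had fewer than 60 counts in every library outside control. Any of these that passed the filter did so through control, where they were high. The sum of 7 skeletal muscle genes was 6.9 to 10.7 in control, 19.7 to 39.3, 33.3 to 49.3 and 125 to 163 in the same order, and 6 of 6 filtered genes were higher with LiCl and with both drugs. With dexamethasone 1 of these 6 was higher and 0 were lower. Acta1, Myl1 and Actc1 had fewer than 60 counts in every library without LiCl, so they passed the count filter through the groups where they were high. Tnni1 and Myh3 had at most 29 and 52 counts in control, so they passed it through the treated groups. The macrophage sum over 7 genes was 79.1 to 125, 210 to 243, 74.3 to 78.9 and 166 to 204, and the endothelial sum over 6 genes was 186 to 206, 73.2 to 75.7, 175 to 192 and 81.5 to 91. Of the 7 macrophage genes, 5 were higher and 1 lower with dexamethasone, and 4 higher and 2 lower with both drugs. Cd163 had at most 1 count in control, 4 with LiCl, 213 with dexamethasone and 133 with both drugs. It passed the count filter only through the conditions with dexamethasone, where it was high, so its part in these counts carries that selection. Of the 6 endothelial genes, 0 were higher and 5 lower with dexamethasone and with both drugs. The epidermal sum over 8 genes was 23 to 27.9, 58.5 to 60.4, 21.4 to 23.3 and 43.4 to 44.9, and the Schwann cell sum over 9 genes stayed between 436 and 517. The defining genes Krt5 and Krt14 of epidermis, Pmp2 of Schwann cells and Lep of adipocytes had 0 to 2 counts in every library, and Adipoq of adipocytes had at most 111 counts in control and 1 with LiCl or both drugs. Of the 13 chondrocyte genes, 1 was higher and 3 lower with both drugs and 0 were higher and 3 lower with LiCl. Beside these marker counts, 5.45% of all genes tested were higher and 5.49% lower with dexamethasone. The shares were 4.71% and 5.9% with LiCl, and 10.8% and 11.8% with both drugs. The part of these cells in the levels of the lipid synthesis genes was not tested.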

How the data were processed

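RNA was sequenced from pools of cultured fetal rat metatarsals, 3 libraries in each of 4 conditions. The authors deposited, for each library, a whole-number count for every gene symbol with no normalization. Their methods name Subread for alignment, Picard for dropping duplicate reads, HTSeq-count for counting and a merge of technical replicates, in versions not given in the sources used here. Dropping duplicates can hold down the values of abundant transcripts. The submitters' notes name a human build, so the build behind the counts is unsettled, and the promoter coordinates are those of RefSeq. Whether counting used strand is not given in the sources used here.

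A gene was tested if 2 or more libraries held 60 or more counts of it (12602 genes). After TMM scaling, all 12 libraries were fitted together in edgeR 4.0.16 (R 4.3.3) with condition as the sole term. The quasi-likelihood F-test was two-sided, and p, adjusted over all genes tested after Benjamini and Hochberg, had to be under 0.05. Levels are CPM from TMM-scaled totals and were not compared between genes. The members and the gene lists were chosen with earlier results of these data known. Members called in at least 1 comparison are given with the value in every library, the others by range and count, and up to 4 genes of each further list are named by smallest adjusted p. The Scd1 row was added after the row names were seen. Elovl7 was named in addition because of how it passed the count filter. The code was tested on simulated data for dexamethasone + LiCl against control, where 14 of 143 calls were false (9.79%). Of the changes put in, 12.5% were called at a fold of 1.25, 56% at 1.5, 90% at 2 and 100% at 3. A gene that was not called can therefore still have changed by a small fold.

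Pairing of same-numbered libraries was checked by the correlation of their deviations from the condition means. For LiCl and control it was 0.209 to 0.302. For dexamethasone + LiCl it was 0.191 to 0.5 with dexamethasone, 0.133 to 0.294 with control and 0.278 to 0.413 with LiCl, so these 4 comparisons were taken as paired by number. The main test had no term for the number and so left this pairing out. Pairing enters through the replicate block and the same-numbered pairs of libraries. For dexamethasone and control it was 0.027 to 0.17, and by this check alone these were not taken as paired. Each of them was taken as paired with dexamethasone + LiCl, so the check does not settle whether they were paired with each other. The study describes 3 experiments in which bones were spread at random over the treatments, and 1 pool for each of 3 rats and treatments. The labels do not say which number is which rat or experiment.

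The alternatives were RLE scaling, DESeq2 1.42.0, filterByExpr (15274 genes), no count filter (23569 genes), a fold minimum of 2, the replicate block, a fit to the compared groups alone, omission of single libraries and, added after the data were seen, the libraries of numbers 1 and 3. Between TMM and RLE the all-gene median log2 fold change differed by 0.00226 or less. Plots used matplotlib 3.10.9 and pandas 2.3.3 in Python 3.11.15.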

Additional observations from a re-analysis of the deposited data

How the results depend on the processing

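The 39 pairwise calls of the 28 genes and 18 named calls of other pathway genes were recomputed, and 0 changed direction where an alternative gave a value. Mlxipl passed the count filter in 10 of the 12 fits that left out a library. Under a fold minimum of 2, 0 genes were called higher in each of the 5 pairwise comparisons. With dexamethasone against control, 4 genes were called with the replicate block (Idi1 and Sc5d gained), 1 with only the groups compared and 1 from numbers 1 and 3, beside 2. With LiCl against control, 5 were called with no count filter and 4 with only the groups compared, beside 8. With dexamethasone + LiCl against LiCl, 2 were called from numbers 1 and 3, beside 5, and of these 2 Lss was not among the 5. When each library was left out in turn, the number called higher was 1 to 3 with dexamethasone, 2 to 8 with LiCl, 4 to 11 when LiCl joined dexamethasone, 11 to 16 with both drugs against control and 0 to 6 when dexamethasone joined LiCl. The number called lower when LiCl joined dexamethasone was 0 to 1, the 1 being Tm7sf2, and in the other comparisons it was 0. The interaction gave 0 calls under every alternative. With each library left out, the median log2 fold change of the sterol enzymes was -0.0058 to 0.0986 with dexamethasone, 0.1775 to 0.2549 for both drugs against LiCl and 0.0568 to 0.1535 for the interaction. That of the regulators was -0.0247 to 0.1019 with dexamethasone, 0.0031 to 0.0942 with LiCl, 0.1012 to 0.1762 with both drugs and -0.1267 to 0.0413 for the interaction. The cause of these differences was not tested, other than that leaving out libraries or groups leaves fewer samples. In the other 4 comparisons the replicate block gave 9, 11, 15 and 7 genes, in the order LiCl against control, dexamethasone + LiCl against dexamethasone, against control and against LiCl, and among these 39 and 18 calls it ended 0. The calls it added among the 28 genes are those given here and in the report.

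The fatty acid group rests on 4 genes. Tm7sf2 had 29 to 83 counts, and Ebp, Mvd and Hsd17b7 had fewer than 100 counts in their lowest libraries, and counting error is largest for these genes. The labels do not say what a library number stands for, and the lower counts of the dexamethasone libraries cannot be told apart from the condition.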
